A study of Rattus norvegicus with 6 samples.

Results

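RNA of the rat sciatic nerve 7 days after a crush injury (the D7 group) was compared with that of control nerve across every gene, with the long noncoding RNAs (lncRNAs) counted from the same libraries as a second layer. The members are the 2 control and 2 D7 libraries, 4 of the 6 libraries of the series, chosen by the treatment that the labels give. All rats were Sprague-Dawley rats, 1 month old, with no genetic change named. In the D7 group the left sciatic nerve was clamped with forceps at its middle and released 7 days before sampling. The labels call the control nerves normal, and the study's methods describe the control rats as operated on in the same way but not clamped. The other 2 libraries came from nerves 4 days after the crush (the D4 group). They shared the estimate of the spread between libraries, and their values are given where the days differed. Each library came from 1 rat, so each group mean rests on 2 animals, a and b, and nothing in the labels ties rats of the same letter.

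A nerve crush cuts axons but leaves the tubes of basal lamina around them in place. Beyond the crush the cut axons break down, and the Schwann cells that wrapped them stop making myelin, take up its debris, divide and become repair cells that make growth factors and guide regrowing axons. Macrophages and other leukocytes enter from the blood and clear the rest of the debris, and the Schwann cells form myelin again once axons have returned to them. The nerve also holds endothelial cells, pericytes, fibroblasts, the perineurial sheath and, around it, fat. The cell bodies of the neurons lie outside the sampled tissue, in the spinal cord and ganglia.

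Levels are given below as counts scaled to 1000000 fragments per library with TMM factors (CPM), in the order library a and library b. A difference is the log2 fold change of D7 over control from edgeR's quasi-likelihood fit, ± its standard error, with a p-value adjusted over all genes or over all lncRNAs tested. A gene is called upregulated or downregulated where the adjusted p is under 0.05 and the change at least 2-fold. All of these libraries are bulk RNA, so fewer cells of a type and less RNA per cell cannot be told apart. The summed mRNA counts were 22497040 and 18751038 in the control libraries and 20018027 and 18727255 in the D7 libraries, and the log2 CPM of the 2 rats of a group correlated across genes at 0.9765 in control and 0.9728 at D7. Schwann cell transcripts marked the tissue in both groups. Pmp22, a myelin gene of Schwann cells, made up 1.636% and 1.14% of the summed mRNA counts in control and 0.2169% and 0.1334% at D7.

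At D7, 2863 of 15195 tested genes (18.8%) were differentially expressed against control, with 1493 upregulated (9.83%) and 1370 downregulated (9.02%). The counts of gene lists given below are to be read beside these shares. The fitted upregulated changes were on the whole larger. A log2 change of at least 3 was reached by 354 upregulated and 139 downregulated genes, and one of at least 5 by 88 and 15. These tallies include genes at or near 0 counts in 1 group, where the size of the fitted change is uncertain. Apoc1, at 0 counts in control, was fitted at log2 9.37, but against a floor of 3 counts it was at least 22.9-fold higher. Hapln2, at 0 counts at D7, was fitted at -10.19 and was at least 47-fold lower. Such genes were not taken out of the tallies. The median change was 1.91 among upregulated genes and -1.67 among downregulated genes. In control nerve the upregulated genes had held 2.656% and 2.675% of the counts, against 11.71% and 10.93% at D7. The downregulated genes went the other way, from 28.29% and 24.69% of the counts to 8.911% and 8.827%. These shares are of the same counts that made the calls and describe them. Without TMM factors the median log2 change over all genes moved from 0.01 to 0.31, and the share of called genes that were upregulated moved from 52.15% to 70.43%. Against D4, 331 genes (2.18%) differed at D7, 256 higher (1.68%) and 75 lower (0.494%), and 35 lncRNAs (0.249%), counts that fell to 0 for mRNAs without D4 a or D4 b and to 99 without D7 a.

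**Figure D1:**
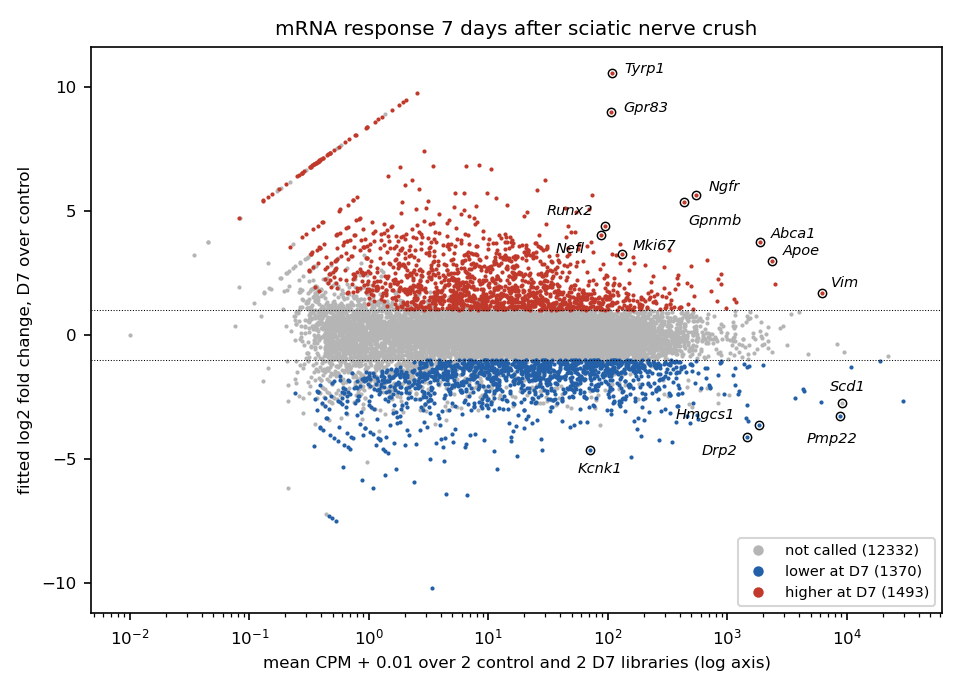
Fitted log2 fold change of D7 over control (vertical axis) against mean CPM plus 0.01 over the 2 control and 2 D7 libraries (horizontal log axis), with 1 point for each of the 15195 tested mRNAs. The 1493 upregulated and 1370 downregulated genes are drawn in separate colours above and below the 12332 genes not called, and the upregulated points reach farther from 0 than the downregulated ones.

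The genes of myelin itself were lower. Of 18 tested genes of myelin proteins 14 were downregulated and 0 upregulated, with a median log2 change of -2.61, beside 9.02% downregulated among all tested genes. Pmp22, whose product is a membrane protein of compact myelin (chr10:49538588-49568583 on Rnor_6.0), stood at 18953 and 12891 CPM in the control rats, 257 and 308 at D4 and 2039 and 1236 at D7 (log2 fold change -3.28 ± 0.32, adjusted p = 0.000967). Both D7 libraries were far below both controls and above both D4 libraries. Mbp, whose product seals the inner faces of the myelin membrane, went from 13194 and 8008 to 1993 and 1262 CPM (log2 fold change -2.70 ± 0.32, adjusted p = 0.00175). The genes of a scaffold of the outer Schwann cell membrane were lower as well. Prx, the periaxin gene (chr1:84304228-84324560), stood at 7334 and 5136 CPM in control, 35.7 and 36.9 at D4 and 1319 and 827 at D7 (log2 fold change -2.54 ± 0.28, adjusted p = 0.00138). Drp2, which binds periaxin, fell from 2983 and 2541 to 224 and 97.2 CPM (log2 fold change -4.10 ± 0.41, adjusted p = 0.00104), with a D7 a over D7 b ratio of 2.3. Prx at D7 was thus lower than in control and higher than at D4 in each rat. By the same thresholds 11 of the 18 genes were higher at D7 than at D4 (1.68% of all genes), and 8 were both lower than control and higher than D4. Hapln2, a link protein of the nodal matrix, had 162 and 87 counts in control and 0 in both D7 libraries. Against a floor of 3 counts in each library it was at least 47-fold lower. Mag, Cldn11 and Cnp did not pass the thresholds, and Mag, an adhesion protein of the innermost myelin wrap, had a log2 change of -0.80 with an adjusted p of 0.0748.

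Most genes of the junctions between axon and Schwann cell were not called. Of 21 tested genes of axoglial contact 4 were lower and 2 higher, the latter a share near the 9.83% of all genes. Nfasc, the neurofascin gene of nodes and paranodes, fell from 988 and 804 to 93.1 and 57.6 CPM (log2 fold change -3.57 ± 0.25, adjusted p = 0.000448), and Cadm3, an internodal adhesion molecule of axons, had a log2 change of -2.89. Lgi3, from a family of secreted ligands of the axoglial contact, rose from 3.19 and 3.44 to 16.2 and 10.9 CPM (log2 fold change 2.03 ± 0.25, adjusted p = 0.00227). The upregulated count was 1 without control b or without D7 a.

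Sterol synthesis fell across its whole course. Of 26 tested genes of cholesterol synthesis and its control 23 were downregulated and 0 upregulated, with a median log2 change of -2.42. Schwann cells make most of the cholesterol of their own myelin, and these enzymes act in sequence from acetyl-CoA. Hmgcs1, the enzyme that makes HMG-CoA, stood at 3796 and 2990.1 CPM in control and at 332 and 215 at D7 (log2 fold change -3.63 ± 0.25, adjusted p = 0.000417). Idi1, which isomerises the 5-carbon building block, went from 702 and 662 to 66.9 and 52.7 CPM (log2 fold change -3.51 ± 0.15, adjusted p = 0.000217). Fdft1, which makes squalene, went from 381 and 294 to 62.4 and 48.6 CPM (log2 fold change -2.60 ± 0.18, adjusted p = 0.000445). Late enzymes fell as well, with log2 changes of -2.60 for squalene epoxidase Sqle, -2.75 for the lanosterol demethylase Cyp51 and -2.86 for the sterol dehydrogenase Nsdhl. The regulator gene Srebf2 had a log2 change of -1.08, the smallest called in the list and lost without control a or D7 b. Stard4 and Ggps1 were not called, with log2 changes of -0.90 and 0.36. Against D4, Hmgcs1, Idi1, Fdft1 and Msmo1 were higher at D7.

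The promoters of these genes were read for a motif that sterol and cell cycle genes are known to share, the CCAAT box bound by the factor NF-Y. The letters CCAAT, or ATTGG on the other strand, were found in 15 of the 18 windows matched among the 26 genes (83.33%) and in 10363 of 27457 windows of all genes (37.74%). Each window runs from 250 bases before to 50 after a transcript start, from RefSeq on GRCr8. A match describes these letters and does not show binding. The windows of Hmgcs1 (chr2:53382054-53382353, + strand) and Idi1 (chr17:66547475-66547774, - strand), the genes with the largest falls of the list, are given 5′ to 3′ with the motif on either strand in capitals.
Hmgcs1: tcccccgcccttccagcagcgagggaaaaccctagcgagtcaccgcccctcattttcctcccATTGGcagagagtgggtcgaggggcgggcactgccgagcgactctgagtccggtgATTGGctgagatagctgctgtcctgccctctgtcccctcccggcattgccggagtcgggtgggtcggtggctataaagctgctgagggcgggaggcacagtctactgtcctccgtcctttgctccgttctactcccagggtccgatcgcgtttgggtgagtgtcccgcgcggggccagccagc
Idi1: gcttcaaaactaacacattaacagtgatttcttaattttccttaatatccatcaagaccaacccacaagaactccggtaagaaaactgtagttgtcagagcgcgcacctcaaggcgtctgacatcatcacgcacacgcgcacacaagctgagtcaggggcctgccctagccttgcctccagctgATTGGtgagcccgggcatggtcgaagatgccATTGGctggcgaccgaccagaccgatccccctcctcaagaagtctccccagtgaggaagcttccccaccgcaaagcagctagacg

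Of 21 tested genes of the synthesis of fatty acids and sphingolipids for myelin, 9 were downregulated and 0 upregulated. Fa2h, which hydroxylates the fatty acids of myelin galactolipids, fell from 681 and 512 to 87.6 and 47.5 CPM (log2 fold change -3.14 ± 0.31, adjusted p = 0.00104). Ugt8, which adds galactose to ceramide, had a log2 change of -2.39 and the elongase gene Elovl7 one of -3.48. Scd2, a desaturase, went from 17722 and 13228 to 6594 and 5969 CPM (adjusted p = 0.00281). Fasn, the fatty acid synthase gene also strong in fat, was called at -2.21 with 5928 and 8170.3 CPM in control and an uneven 658 and 2396 CPM at D7, and the call was lost without control b, D4 a or D4 b. Srebf1, Fads1 and Fads2 were not called, with log2 changes of -0.08, 0.19 and 0.04.

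Some regulators of the repair state of Schwann cells rose. Of 23 tested transcription factors of the Schwann lineage 7 were upregulated, 1 was downregulated and 15 were not called. Jun, which drives the repair programme, stood at 86 and 84.4 CPM in control and 383 and 364 at D7 (log2 fold change 2.13 ± 0.09, adjusted p = 0.000217). Sox2, a factor of immature Schwann cells, rose from 20.6 and 18.9 to 113 and 118 CPM (log2 fold change 2.54 ± 0.10, adjusted p = 0.000174). Runx2 rose from 7.52 and 9.59 to 165 and 193 CPM (log2 fold change 4.39 ± 0.17, adjusted p = 0.000174). In each of these the 2 D7 rats were within a narrow range far above the 2 controls. Notch1, Pou3f2, Egr3 and Tfap2a were also upregulated, by log2 1.24, 1.89, 2.49 and 3.76. Egr2, the main activator of myelin genes, was not called. It had 294 and 112 CPM in the control rats, 16.5 and 23 at D4 and 89.7 and 70.3 at D7 (log2 fold change -1.34, adjusted p = 0.0562). Sox10, the lineage factor of all Schwann cells, was not called either (log2 fold change 0.63 ± 0.21, adjusted p = 0.0618). Nab1, a partner of Egr2, had a log2 change of -1.66, and without control a or control b the downregulated count was 3 or 2.

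Of 28 tested receptors and secreted factors of repair Schwann cells 14 were upregulated and 4 downregulated. Ngfr, the p75 neurotrophin receptor (chr10:83389847-83408061), rose from 22.9 and 20.9 CPM to 1109 and 1051 (log2 fold change 5.62 ± 0.13, adjusted p = 8.93e-05). The guidance ligand gene Sema3e rose from 2.94 and 1.87 to 84.8 and 84.2 CPM (log2 fold change 5.12 ± 0.22, adjusted p = 0.000213), and the EGF family ligand gene Btc from 2.16 and 3.2 to 60.5 and 55.7 CPM (log2 fold change 4.45 ± 0.18, adjusted p = 0.000201). In each of these 3 genes the D7 rats lay close together and far above both controls. Gdnf, the growth factor for motor axons (chr2:56887987-56910238), had 3 and 2 counts in control, 504 and 722 at D4 and 103 and 98 at D7, a D7 over control ratio of 34.9 (95% counting interval 14.7 to 109). It was thus above control on both days and lower at D7 than at D4 (log2 fold change -2.29, adjusted p = 0.0117). Gfra1, the receptor subunit that binds Gdnf, rose from 169.6 and 132 to 1233 and 1174 CPM (log2 fold change 3.00 ± 0.17, adjusted p = 0.000331), while Ret, which signals together with it, fell from 41.4 and 51.6 to 3.99 and 4.55 CPM (log2 fold change -3.44 ± 0.24, adjusted p = 0.000445). Artn, Lif, Bdnf and Fgf5, which encode secreted factors, rose by log2 2.38, 3.46, 3.28 and 6.69, and the Bdnf call was lost without D4 a, D4 b or D7 a. Ucn2, a peptide of the urocortin family, had 3 and 2 counts in control and 374 and 312 at D7, a ratio of 119 (95% counting interval 50.7 to 368). Cntf, a neuroprotective factor that intact Schwann cells store, went the other way, from 370.3 and 291 to 30.8 and 16.9 CPM (log2 fold change -3.79 ± 0.32, adjusted p = 0.000686). Gap43 and Gfap were not called, with log2 changes of 0.49 and 0.83.

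Among the receptors for neuregulin, Erbb3, the one of Schwann cells, rose from 666 and 552 to 1757 and 1553 CPM (log2 fold change 1.44 ± 0.14, adjusted p = 0.00105) and Erbb4 fell from 64.3 and 54.7 to 9.58 and 5.99 CPM (log2 fold change -2.93 ± 0.28, adjusted p = 0.000955). Erbb2 and the ligand gene Nrg1 had log2 changes of 0.71 and 0.14 and were not called. Of 13 tested hedgehog pathway genes 1, Shh, was upregulated (log2 fold change 1.31 ± 0.23, adjusted p = 0.00675), beside 9.83% of all genes. Shh was not called with the 2-fold change tested. The pathway inhibitor Hhip was downregulated (log2 fold change -2.27 ± 0.58, adjusted p = 0.026), along with the coreceptor genes Boc and Cdon. These 3 lower calls of 13 tested became 0 without control b and 1 without D4 a, D4 b or D7 a. Dhh, the hedgehog ligand of Schwann cells, had a log2 change of -0.09.

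The genes of cell division rose together. All 39 tested genes of mitosis were upregulated, with a median log2 change of 3.27, beside 9.83% among all tested genes, and the count was 39 without any 1 library. Cdk1, the kinase that drives entry into mitosis (chr20:20576377-20591549 on Rnor_6.0), rose from 2.21 and 4.04 CPM to 47.9 and 52.2 (log2 fold change 4.01 ± 0.26, adjusted p = 0.000375). Birc5, survivin of the chromosomal passenger complex, rose from 0.515 and 0.844 to 14.8 and 14.6 CPM (log2 fold change 4.45 ± 0.28, adjusted p = 0.000375). Mki67, whose protein coats mitotic chromosomes, rose from 17.3 and 33.5 to 230.4 and 248 CPM (log2 fold change 3.24 ± 0.32, adjusted p = 0.00102). For these genes the D7 rats lay close together, while control b was above control a. That difference ran through the list, whose control a over control b ratio had a median of 0.579, and 15 of its genes differed 2-fold or more between the 2 control rats (7.67% of all genes). The changes ranged from 1.43 for Cenpn to 4.55 for Kif14. Of 35 tested genes of DNA replication 28 were upregulated, with a median log2 change of 1.48. Rrm2, a subunit of ribonucleotide reductase, rose from 0.36 and 1.27 to 12 and 13.5 CPM (log2 fold change 4.00 ± 0.41, adjusted p = 0.00115). Cdt1, which loads the MCM helicase, rose from 3.14 and 4.52 to 27.1 and 22.8 CPM (log2 fold change 2.71 ± 0.21, adjusted p = 0.000553). Pcna, the sliding clamp, had a smaller change (log2 fold change 1.11 ± 0.09, adjusted p = 0.000693), and Lig1, Tyms and Pold1 were among the 7 not called. Of 22 tested G1 cyclins, E2F factors and CDK inhibitors 11 were upregulated. Ccnd1, cyclin D1, rose from 106 and 147 to 832 and 894 CPM (log2 fold change 2.77 ± 0.18, adjusted p = 0.000381), and Cdkn1a, the p21 inhibitor, rose by log2 1.87. Cdkn1b, the p27 inhibitor, was not called at -0.71.

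The promoter windows of these 2 lists differed in the motifs they hold. TTTGAA, the cell cycle homology region (CHR) of late cell cycle genes, or TTCAAA on the other strand, stood in 23 of 34 windows of the mitosis genes (67.65%), in 2 of 29 of the replication genes (6.897%) and in 4962 of 27457 of all genes (18.07%). GCGGGAA, one form of the E2F site, or TTCCCGC on the other strand, stood in 4 of 34 mitosis windows (11.76%), 12 of 29 replication windows (41.38%) and 1228 of all windows (4.472%). CCAAT was found in 23 of 34 and 18 of 29 (62.07%). The windows of Birc5 (chr10:103571896-103572195, + strand on GRCr8) and Cdk1 (chr20:19265043-19265342, + strand) hold both the CHR and CCAAT letters, and that of Cdt1 (chr19:67528999-67529298, + strand) an E2F match. They are shown to let these arrangements be seen, with matches on either strand in capitals. No 2 matches overlap in these 3 windows, and a match does not show that a factor bound there.
Birc5: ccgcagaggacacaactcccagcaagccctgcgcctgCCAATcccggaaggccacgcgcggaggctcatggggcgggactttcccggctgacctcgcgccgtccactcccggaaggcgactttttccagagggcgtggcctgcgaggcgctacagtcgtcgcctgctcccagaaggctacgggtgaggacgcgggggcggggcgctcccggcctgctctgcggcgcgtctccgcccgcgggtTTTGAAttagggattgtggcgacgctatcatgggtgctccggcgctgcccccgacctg
Cdk1: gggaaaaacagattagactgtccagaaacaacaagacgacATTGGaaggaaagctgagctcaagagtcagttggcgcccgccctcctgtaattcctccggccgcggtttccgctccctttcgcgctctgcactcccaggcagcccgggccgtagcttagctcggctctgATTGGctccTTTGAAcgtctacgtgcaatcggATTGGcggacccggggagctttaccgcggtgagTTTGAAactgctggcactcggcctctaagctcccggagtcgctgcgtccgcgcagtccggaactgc
Cdt1: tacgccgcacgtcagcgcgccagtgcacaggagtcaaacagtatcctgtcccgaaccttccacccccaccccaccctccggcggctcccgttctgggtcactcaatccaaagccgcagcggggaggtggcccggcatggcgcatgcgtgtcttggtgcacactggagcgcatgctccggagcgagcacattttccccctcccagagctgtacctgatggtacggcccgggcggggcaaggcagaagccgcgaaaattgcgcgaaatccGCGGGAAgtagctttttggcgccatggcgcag

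**Figure D2:**
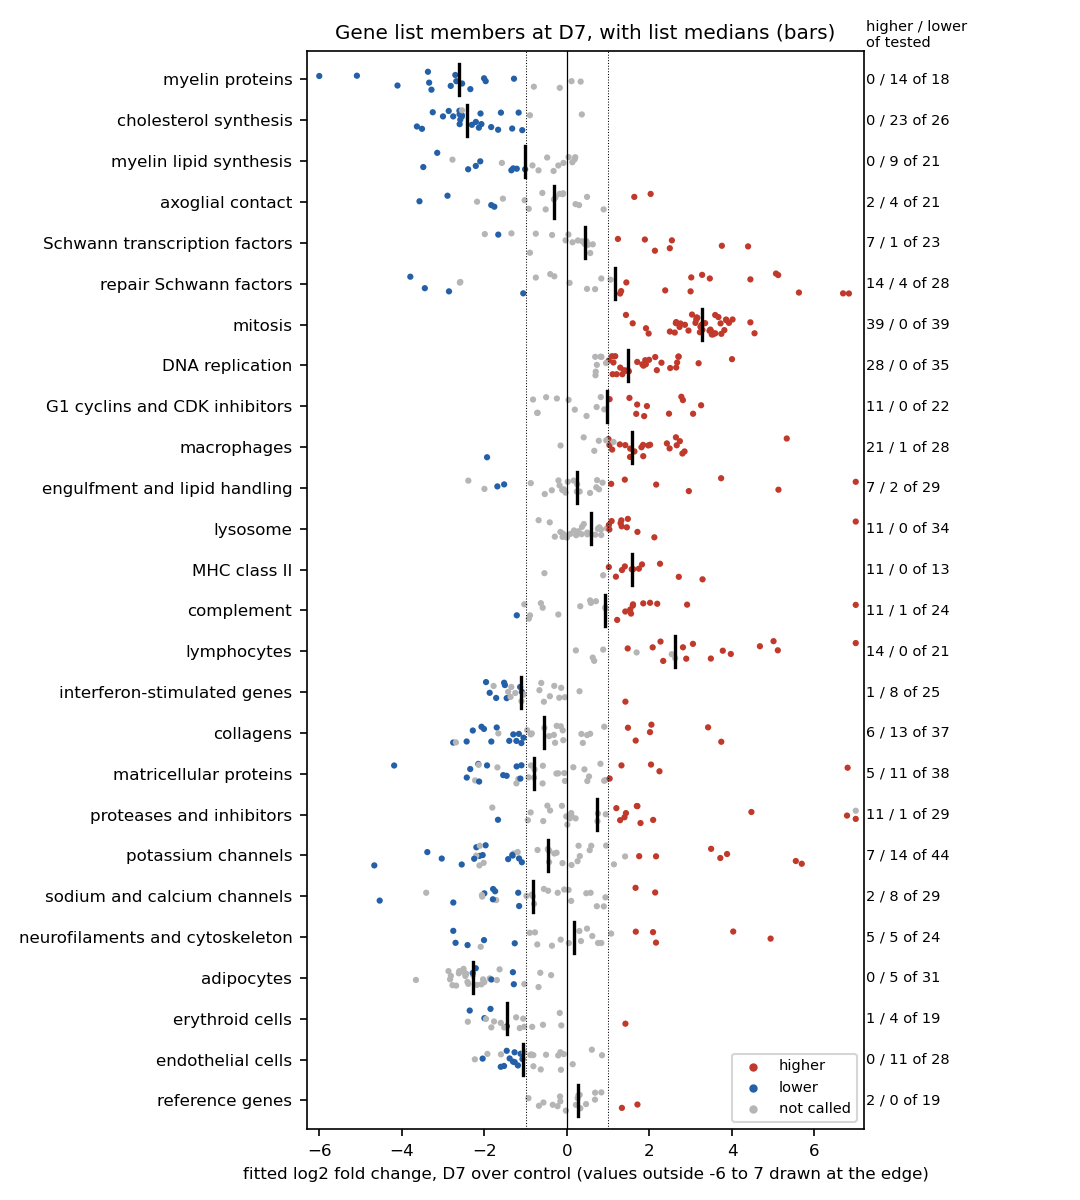
Fitted log2 fold change of D7 over control for the tested members of 26 gene lists, 1 point per gene coloured by its call, with a bar at each list median and the numbers upregulated and downregulated at the right. The mitosis list (39 of 39 upregulated) and the cholesterol list (23 of 26 downregulated) lie wholly or nearly wholly to 1 side. The lysosome list is shifted above 0, at a median of 0.59, and the collagen list has called genes on both sides, at a median of -0.54.

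**Figure D3:**
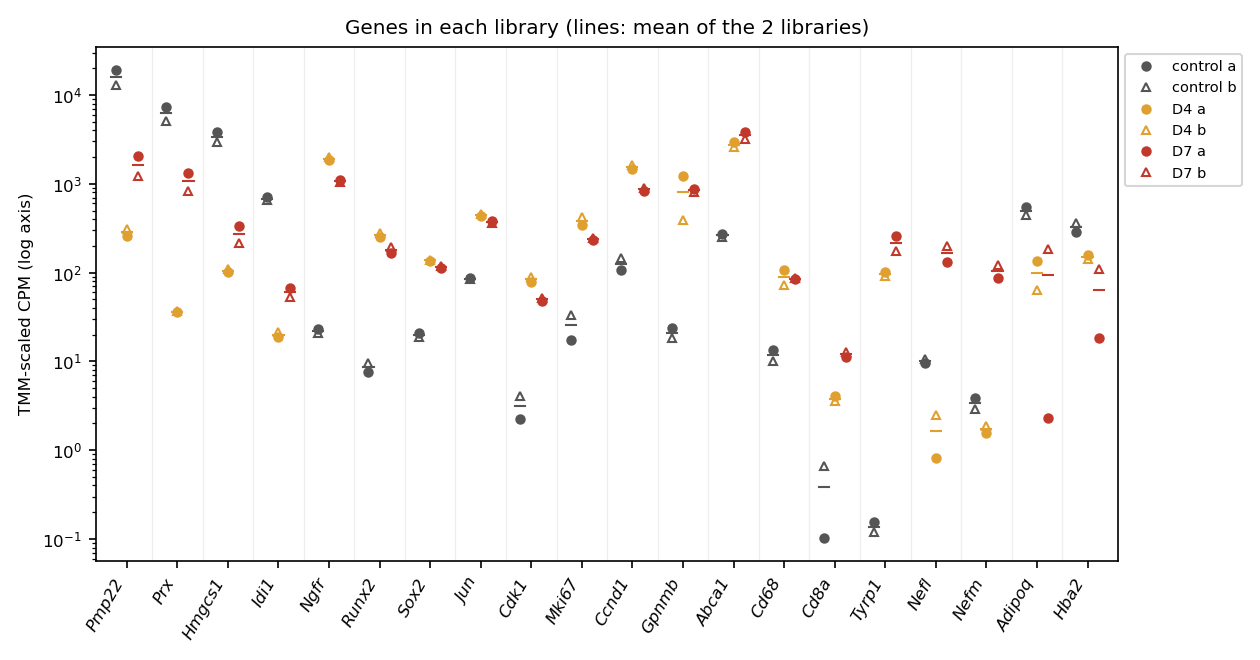
CPM on a log axis of 20 genes in each of the 6 libraries, with control in grey, D4 in yellow and D7 in red, library a as a filled circle and library b as an open triangle, and a line at the mean of the 2 libraries of a group. Pmp22 and Prx sit below control at D7 and above D4, Ngfr, Runx2 and Jun lie close together in the 2 D7 rats, and Adipoq is spread between 2.3 and 185 CPM at D7.

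Macrophage genes were higher at D7. Of 28 tested markers 21 were upregulated and 1 was downregulated, with a median log2 change of 1.59. Cd68, an endosomal protein of macrophages, rose from 13.4 and 10.1 to 84.2 and 86.4 CPM (log2 fold change 2.85 ± 0.23, adjusted p = 0.000637), and Lyz2, macrophage lysozyme, from 201 and 205 to 779.8 and 812 CPM (log2 fold change 1.97 ± 0.09, adjusted p = 0.000245). Trem2, a receptor for lipids, and Lgals3, galectin 3, rose by log2 2.80 and 2.42. Gpnmb, a glycoprotein of lipid-laden macrophages and of pigment cells, stood at 23.5 and 18.4 CPM in control, 1217 and 396 at D4 and 882 and 804 at D7 (log2 fold change 5.33 ± 0.57, adjusted p = 0.00134). All of these D7 values were above every control value, and the D4 rats were uneven in Gpnmb. Spp1, osteopontin, was the 1 gene of the list that fell, from 958 and 736 to 264 and 179 CPM (log2 fold change -1.93 ± 0.31, adjusted p = 0.00563), and it stood at 915 and 539 at D4. Arg1, often used for one macrophage state, was not called (log2 fold change -0.15 ± 0.68, adjusted p = 0.876), and Nos2 was not matched in the table.

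The genes by which cells take up debris and pass on its lipid moved less uniformly. Of 29 tested, 7 were upregulated, 2 downregulated and 20 not called, with a median log2 change of 0.24. Among all tested genes 9.83% were upregulated and 9.02% downregulated. The downregulated count of the list was 1 without control b, D4 a or D4 b. Abca1, which exports cholesterol (chr5:69857771-69983015), rose from 271 and 254 to 3788 and 3217 CPM (log2 fold change 3.74 ± 0.15, adjusted p = 0.000174). Apoe, which carries it, rose from 629 and 455 to 4564 and 3844 CPM (log2 fold change 2.96 ± 0.41, adjusted p = 0.00309). Apoc1, a neighbouring apolipoprotein gene, had 0 counts in both controls and 92 and 68 at D7, at least 22.9-fold higher against the floor. Olr1, a receptor for oxidised lipoprotein, Lipa, the lysosomal acid lipase, and Soat1, which esterifies cholesterol, rose by log2 5.13, 2.16 and 1.40. These named genes of export, carriage, hydrolysis and storage of cholesterol rose at D7, but most genes of the engulfment and lipid list were not called. The engulfment receptor genes Mertk and Axl had log2 changes of 0.16 and 0.87 and were not called. Of 34 tested lysosomal genes 11 were upregulated and 0 downregulated, and the count was 7 without control b. Ctss, a protease of antigen-presenting cells, rose by log2 2.12 and Gusb, a glycosidase, by log2 1.71. Lamp1, Psap and Tfeb, of the lysosomal membrane, sphingolipid breakdown and lysosomal gene control, were not called, with changes of 0.23, 0.75 and -0.10.

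Most genes of antigen presentation and part of the complement genes were also higher. Of 13 tested genes of the MHC class II pathway 11 were upregulated. RT1-Da, a class II alpha chain, rose from 50.1 and 44.5 to 134 and 148 CPM (log2 fold change 1.57 ± 0.10, adjusted p = 0.000397), and Ciita, the class II regulator, by log2 1.61. Cd86, a costimulatory ligand, rose by log2 3.29, and the invariant chain gene Cd74 was not called (log2 fold change 0.88 ± 0.09, adjusted p = 0.00124). RT1 genes are near copies of one another, and fragments may have been divided between them in counting. Of 24 tested complement genes 11 were upregulated, 1 was downregulated and 12 were not called. C3, the central component, rose from 28.5 and 25.5 to 110.4 and 136 CPM (log2 fold change 2.19 ± 0.14, adjusted p = 0.000375), and C1qa and Itgb2, parts of the first component and of a complement receptor, rose by log2 2.02 and 2.91. The inhibitor gene Cd55 fell (log2 fold change -1.21 ± 0.16, adjusted p = 0.00263) and was not called without TMM factors. The count of 1 downregulated gene became 3 without D7 b. C4b, Cfd and C6 were not called, and their D7 values followed the fat genes described below, at 57.1 and 527, 45.6 and 230.3 and 9.02 and 45.9 CPM in D7 a and D7 b.

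Most tested lymphocyte genes were low in control and higher at D7. Of 30 listed, 8 had too few counts to be tested, and 14 of 21 tested were upregulated, beside 9.83% of all genes. The count filter used all 6 libraries, so a gene low in control could enter through D4 or D7. The count of 14 therefore leans toward rises. Cd8a, the co-receptor of cytotoxic T cells, rose from 0.103 and 0.663 to 11.1 and 12.9 CPM (log2 fold change 5.01 ± 0.56, adjusted p = 0.00154). Cd3e, of the T cell receptor complex, rose by log2 3.49, and Cd3d had 0 counts in both controls and 23 and 19 at D7, at least 6.02-fold higher. Prf1, the perforin gene of cytotoxic cells, rose by log2 2.81. The B cell genes Cd79a, Cd79b, Ms4a1 and Pax5 were too low to be tested. Of the neutrophil markers 6 were tested and 12 were not, among them S100a8, S100a9 and Elane. Mmp8, a collagenase of neutrophils, had 3 and 1 counts in control and 387 and 153 at D7, a ratio of 117 (95% counting interval 45.5 to 431). Its D4 values were 10.8 and 0.333 CPM, an uneven pair, and its call was lost without control a, control b or D7 a. Mast cell genes went in both directions, with 5 of 13 lower and 2 higher. Hdc, which makes histamine, was lower (log2 fold change -2.03 ± 0.58, adjusted p = 0.037), and Mcpt2 was higher (log2 fold change 3.43 ± 0.91, adjusted p = 0.0294) but not without D4 a, D4 b or D7 a. The 5 lower calls were 1 without control a, 2 without control b, 3 without D4 a or D4 b and 0 without D7 a.

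Of 32 tested chemokines and receptors 12 were upregulated and 1 was downregulated. Ccl2, which draws monocytes, rose from 1.18 and 1.09 to 12.5 and 21.5 CPM (log2 fold change 3.89 ± 0.37, adjusted p = 0.000919) and had been higher at D4, at 44.7 and 62.5 CPM. Cxcl14 rose by log2 2.94 and Cxcr4, the receptor of Cxcl12, by log2 2.77. Cxcl12 itself fell from 163 and 189 to 49.6 and 103 CPM (log2 fold change -1.20 ± 0.34, adjusted p = 0.0352), a call that was lost without control a, control b, D4 a, D4 b or D7 a, while 5 genes were downregulated without D7 b. Interferon-stimulated genes were more often lower than higher. Of 25 tested, 8 were downregulated, or 5 without TMM factors, and 1 upregulated, with a median of -1.10. Ifit1, an antiviral RNA-binding protein, fell from 55.7 and 30.8 to 9.2 and 13.1 CPM (log2 fold change -1.96 ± 0.34, adjusted p = 0.00734). The controls themselves were uneven in this list, with a median control a over control b ratio of 1.62 and Irf7 at 115 and 36.3 CPM, and the downregulated count was 5 without control a. Gbp2, a guanylate-binding protein, was the gene that rose (log2 fold change 1.42 ± 0.25, adjusted p = 0.00731).

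The extracellular matrix showed more lower than higher genes among its structural proteins. Of 37 tested collagen genes 13 were downregulated and 6 upregulated, beside 9.02% and 9.83% of all genes. Col1a1, of the main fibrillar collagen (chr10:82745801-82762789), went from 24900 and 26451 to 11662 and 13124 CPM (log2 fold change -1.05 ± 0.13, adjusted p = 0.00245), just past 2-fold, and the call was lost without D7 a. Col3a1, its companion in fibrils, was not called (log2 fold change -0.87 ± 0.14, adjusted p = 0.00564). Col2a1 and Col9a1, best known from cartilage, fell from 744 and 370.3 to 135 and 72 CPM (log2 fold change -2.43 ± 0.42, adjusted p = 0.00711) and from 198 and 185 to 25.1 and 31.6 CPM (log2 fold change -2.75 ± 0.19, adjusted p = 0.000401). Of the basement membrane chains Col4a1, Col4a4, Col4a5 and Col4a6 were downregulated, by log2 -1.22, -2.07, -2.01 and -1.70, the last lost without any 1 library other than control a. Col18a1, a basement membrane collagen, rose from 266 and 417 to 1585 and 1244 CPM (log2 fold change 2.05 ± 0.25, adjusted p = 0.00192), and Col7a1 and Col20a1 rose by log2 3.74 and 3.42. Col1a2 and Col15a1 are listed at 0 in all 6 libraries. Whether this came from the annotation or the counting was not tested, and these values do not show that the genes were silent.

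Of 38 tested matricellular proteins and proteoglycans 5 were upregulated and 11 downregulated, the former a share near the 9.83% of all genes. Thbs2, thrombospondin 2, rose from 321 and 265 to 1485 and 1291 CPM (log2 fold change 2.24 ± 0.15, adjusted p = 0.000381), and Tnc, tenascin C of injured tissue, from 121 and 179.7 to 598 and 638 CPM (log2 fold change 2.04 ± 0.19, adjusted p = 0.000941). Tnr, the tenascin of the central nervous system and of nodes, fell from 12.1 and 3.08 to 0.047 and 0.792 CPM (log2 fold change -4.19 ± 1.09, adjusted p = 0.0279). The tenascins therefore split, with Tnc and Tnn upregulated and Tnr and Tnxb downregulated, and Tnn at 2 and 0 counts in control and 110 and 172 at D7, a ratio of 122 (95% counting interval 33.5 to 1015). The calls of Tnr (without control a, D4 a, D4 b or D7 a), Tnxb (without D7 a) and Tnn (without control a or control b) did not hold. Fn1, fibronectin, was below 2-fold (log2 fold change 0.90 ± 0.13, adjusted p = 0.00344). Of 29 tested proteases and their inhibitors 11 were upregulated and 1 was downregulated, the latter count being 0 without control b or D7 a and 3 without D7 b. Mmp12, a macrophage elastase, had 0 and 1 counts in control and 149 and 90 at D7, a ratio of 207 (95% counting interval 36.8 to 8221), and its call was lost without control a or control b. Plat and Plau, the plasminogen activators, rose by log2 1.70 and 1.29, the inhibitor Timp1 by log2 1.40, and Mmp14, a membrane-bound metalloprotease, was not called at 0.01.

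The transcripts of the axonal skeleton separated by subunit. Nefl and Nefm, the light and medium neurofilament chains, were upregulated, and Nefh, the heavy chain, was downregulated. Nefl (chr15:44799334-44804574) had 188 and 177 counts in control, 20 and 67 at D4 and 2791 and 4075 at D7 (log2 fold change 4.03 ± 0.41, adjusted p = 0.00113). Nefm (chr15:44855310-44860604) had 75 and 48, 38 and 51 and 1835 and 2469 counts (log2 fold change 4.94 ± 0.25, adjusted p = 0.000246). Nefh went from 4.89 and 2.23 to 0.845 and 0.198 CPM (log2 fold change -2.75 ± 0.83, adjusted p = 0.0432), a call lost without control a, D4 a, D4 b or D7 b. Both D7 rats were more than 10-fold above the D4 rats in Nefl and Nefm, and Nefl at D4 lay below control. Of the 12 tested marker genes of neurons Thy1 and Scn10a were upregulated and Snap25 and Vamp2 downregulated, and 11 markers, among them Rbfox3, Elavl4, Isl1, Calca and Chat, were too low to be tested. Scn10a, a sodium channel of nociceptors, went from 0.258 and 0.181 to 1.41 and 0.693 CPM (log2 fold change 2.22 ± 0.70, adjusted p = 0.0493), and this call was lost without any 1 library. Snap25, of synaptic vesicle fusion, was lost without control a or D7 a. Vim, the intermediate filament of Schwann cells and fibroblasts, rose from 3207 and 2730.2 to 10489 and 8408 CPM (log2 fold change 1.67 ± 0.16, adjusted p = 0.00103), and the tubulin gene Tubb2b by log2 2.09, while Tubb4a and Tuba1a were downregulated, at -2.70 and -1.26.

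Of 44 tested potassium channel genes 14 were downregulated and 7 upregulated. Kcnk1, a leak channel (chr19:58823814-58862926), fell from 162 and 111 to 6.76 and 3.96 CPM (log2 fold change -4.67 ± 0.32, adjusted p = 0.000401). Kcna1 and Kcna2, the channels of the axon beside the paranode, fell from 219 and 160.2 to 31 and 15.3 CPM (log2 fold change -3.03 ± 0.36, adjusted p = 0.00179) and from 253 and 208 to 47.7 and 31.1 CPM (log2 fold change -2.55 ± 0.22, adjusted p = 0.00073). Kcnj10, an inward rectifier of glia, rose from 5.2 and 4.88 to 68.8 and 45.1 CPM (log2 fold change 3.50 ± 0.33, adjusted p = 0.000949), and Kcng1 and Kcnh1 rose by log2 5.69 and 3.72. Of 29 tested sodium and calcium channel genes 8 were downregulated, or 5 without D7 a, and 2 upregulated, or 4 without control a. The 2 upregulated genes were a share near the 9.83% of all genes. Scn7a, an atypical sodium channel of glia, fell from 1284 and 1128 to 687 and 394 CPM (log2 fold change -1.16 ± 0.26, adjusted p = 0.0166, lost without control a or D7 b), Cacna1c and Cacnb4 had log2 changes of -2.00 and -2.75, and Scn3b and Cacna1b rose by log2 2.14 and 1.66.

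A gene of the pigment lineage had the largest fitted change among the genes named by size. Tyrp1, a melanosome enzyme (chr5:98387291-98406083), had 3 and 2 counts in control, 2478 and 2478 at D4 and 5562 and 3527 at D7, a ratio of 1577 (95% counting interval 675 to 4857) against control, and was higher at D7 than at D4 (log2 fold change 1.17, adjusted p = 0.0343). Dct, which acts beside it, rose from 0.515 and 0.241 to 11.9 and 10.7 CPM (log2 fold change 4.85 ± 0.61, adjusted p = 0.00227), and Ednrb, the endothelin receptor of neural crest cells, from 19.9 and 21 to 219 and 173 CPM (log2 fold change 3.26 ± 0.21, adjusted p = 0.000381). Mitf, the regulator of pigment genes, was not called (log2 fold change -0.39 ± 0.12, adjusted p = 0.0436), Pmel had a log2 change of -0.51, and Tyr, Mlana and Slc45a2 were too low to be tested. In all 5 of 14 tested genes rose, Gpnmb and Rab38 among them, the latter not without control b or D7 a. The 1 lower call, Mlph (log2 fold change -1.76 ± 0.50, adjusted p = 0.0354), was lost without control a, control b, D4 a, D4 b or D7 a.

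The other large rises and falls came from several classes of gene. The 12 largest rises among called genes of at least 5 FPKM in one group were Tyrp1, Apoc1, Gpr83, Apoc4, Ucn2, Mmp8, Fgf5, Lilrb4, Ms4a6c, Pcsk1, Kcng1 and Ngfr. Gpr83, a G protein-coupled receptor, rose from 0.309 and 0.543 to 141 and 283 CPM (log2 fold change 8.97 ± 0.60, adjusted p = 0.000399), and Pcsk1, a convertase of prohormones, from 0.309 and 1.51 to 43.8 and 56.2 CPM (log2 fold change 5.83 ± 0.47, adjusted p = 0.000626). Apoc4 had 0 and 0 counts in control and 62 and 45 at D7, at least 15.3-fold higher. Lilrb4 and Ms4a6c, of leukocyte receptor families, rose by log2 6.24 and 6.01. The 12 largest falls were 4932411E22Rik, Lect1, B3galt2, Vsnl1, Kcnk1, Slc13a3, Cldn20, LOC688613, Fgf1, Sptb, Myom2 and Gpx2. Fgf1, a growth factor of axons and glia, fell from 715 and 592 to 38.6 and 27 CPM (log2 fold change -4.32 ± 0.21, adjusted p = 0.000245), Lect1, which encodes chondromodulin, from 369 and 241 to 14 and 6.04 CPM (log2 fold change -4.92 ± 0.44, adjusted p = 0.000772), and Vsnl1, a calcium sensor, from 22.1 and 20.6 to 0.704 and 0.94 CPM (log2 fold change -4.69 ± 0.23, adjusted p = 0.000245). Lect1, B3galt2 and LOC688613 were higher at D7 than at D4, Lect1 by a log2 difference of 3.51 (adjusted p = 0.0268). B3galt2 had 0 and 1 counts at D4 and 36 and 11 at D7, and LOC688613 had 0 and 1 and 14 and 10. Of the genes with the highest FPKM at D7, Apod, a lipocalin of nerve fibroblasts and Schwann cells, rose from 921 and 1042 to 4009.8 and 4105 CPM (log2 fold change 2.05 ± 0.12, adjusted p = 0.000331).

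Smaller groups were mixed. Of 19 tested oncofetal and insulin-like growth factor genes 4 were upregulated. Hmga2, a chromatin protein of embryonic tissue, had 0 counts in both controls, 315 and 321 at D4 and 50 and 79 at D7, at least 18.7-fold above control and lower than at D4 (log2 fold change -1.99, adjusted p = 0.0385). Dlk1, an imprinted surface protein, rose from 4.64 and 2.23 to 35.8 and 26.6 CPM (log2 fold change 3.17 ± 0.33, adjusted p = 0.00123). Of 23 tested immediate early genes 9 were upregulated and 3 downregulated, or 5 without control b. Fos and Fosl1, partners of Jun in AP-1, rose by log2 2.39 and 3.92, and Atf3, an injury-induced factor, rose from 2.42 and 1.27 to 16.3 and 13.9 CPM (log2 fold change 3.01 ± 0.28, adjusted p = 0.000858) after 38.9 and 34.9 CPM at D4. Arc fell from 18.8 and 18.1 to 3.15 and 2.18 CPM (log2 fold change -2.79 ± 0.30, adjusted p = 0.00132). Of 24 tested genes of glycolysis 5 were downregulated and 1 was upregulated, or 2 without control b, beside 9.02% and 9.83% of all genes. The downregulated count was 3 without TMM factors. Among the 5 lower genes were the glucose transporter gene Slc2a1 (log2 fold change -1.15 ± 0.17, adjusted p = 0.00388, lost without control a) and the lactate transporter gene Slc16a1 (log2 fold change -1.24 ± 0.17, adjusted p = 0.00288). Of 18 tested genes of heme and iron handling 2 were upregulated and 1 was downregulated, shares near those of all genes, and 15 were not called. Hmox1, heme oxygenase, rose (log2 fold change 1.36 ± 0.33, adjusted p = 0.0226), and the ferritin chain genes Ftl1 and Fth1 had log2 changes of 1.20 and -1.18. Without TMM factors 0 genes of this list were downregulated. The Hmox1 call was lost without control a, control b, D7 a or D7 b and the Fth1 call without control a.

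Part of the genes of vessels were lower at D7. Of 28 tested endothelial genes 11 were downregulated, 0 upregulated and 17 not called, and 6 were downregulated without D7 a or without TMM factors and 1 was upregulated without control b. Vwf, von Willebrand factor, fell from 342 and 909 to 89.4 and 214 CPM (log2 fold change -2.04 ± 0.56, adjusted p = 0.033, lost without control b, D4 a, D4 b or D7 a), and Cldn5, of the tight junctions, from 82.3 and 67 to 30.3 and 26.8 CPM (log2 fold change -1.39 ± 0.13, adjusted p = 0.000928). The median D7 a over D7 b ratio of this list was 0.671. Of 14 tested genes of pericytes and smooth muscle 5 were downregulated, and 12 without control a, 1 without control b, 3 without D4 a or D4 b and 0 without D7 a or without TMM factors. The control rats differed in this list, with a median control a over control b ratio of 0.540 and Myh11, smooth muscle myosin, at 298 and 2622 CPM, and Myh11 was not called (log2 fold change -2.75 ± 1.09, adjusted p = 0.0939). Of 20 tested fibroblast genes 2 were lower and 2 higher, shares near those of all genes, and the lower count was 0 without control a, control b, D4 a or D4 b, 1 without D7 a and 7 without D7 b. Of 11 tested perineurial genes 3 were lower and 1 higher, the latter not without D7 a. Cldn1, a tight junction gene of the perineurium, fell from 403 and 324 to 143 and 140.2 CPM (log2 fold change -1.36 ± 0.13, adjusted p = 0.000997). Of 19 tested genes often used as references 17 were not called and Rps18 and Gusb were upregulated, by log2 1.33 and 1.71, the former not without any 1 library other than D7 a.

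The 2 D7 libraries differed from each other in genes of fat and, less strongly, in those of blood and some other lists. Over all tested genes the median D7 a over D7 b ratio was 0.998, and 999 genes (6.57%) differed 2-fold or more, of which 239 were 2-fold or more higher in D7 a (1.57%) and 760 in D7 b (5%). Between the 2 controls 422 genes were 2-fold or more higher in a (2.78%) and 743 in b (4.89%). With 1 rat on each side these ratios have no test. Of 31 tested adipocyte genes 25 were at least 2-fold higher in D7 b and the median D7 b over D7 a ratio was 10.5. Adipoq, the adipocyte hormone adiponectin (chr11:81330293-81344488), held 550.4 and 442 CPM in control, 134 and 63.9 at D4 and 2.3 and 185 at D7, a D7 b over D7 a ratio of 80.2. Plin1, which coats lipid droplets, held 1.36 and 98.8 CPM at D7 after 318 and 292 in control, and Car3, a carbonic anhydrase of fat and muscle, 4.55 and 492 CPM. Fabp4, a fatty acid carrier, held 2.68 and 87.7 CPM in D7 a and D7 b. All of these were low in D7 a, higher in D7 b and higher still in both controls. Summed over the list the CPM were 19324 and 24911 in control, 2880 and 1622 at D4 and 467.6 and 6958 at D7. The 12 genes with the largest excess in D7 b among those of at least 10 FPKM were Ces1d, Car3, Thrsp, Adipoq, Plin1, Scd1, Retn, Pnpla3, Fabp4, Rbp4, Lpl and Cdo1.

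Few adipocyte genes were called against control, and the D7 rats lay far apart in them. Whether that distance set the count was not tested. The list had 5 downregulated genes and a median log2 change of -2.27, and the count was 28 without D7 b, 12 without D7 a, 3 without control a, 1 without control b and 2 without D4 a or D4 b. Adipoq had a log2 change of -2.41 with an adjusted p of 0.24. Lipe, the hormone-sensitive lipase, was called (log2 fold change -2.21 ± 0.67, adjusted p = 0.045) with 14 and 60.5 CPM in the D7 rats and 210.5 and 133 in the controls, but only with all 6 libraries or without D7 b. Genes of other lists that fat also expresses showed the same imbalance. Scd1 held 13217 and 18630 CPM in control and 79.7 and 4580.5 at D7 and was not called, and Lpl, lipoprotein lipase, held 1398 and 1404 and 25.6 and 509.9 CPM. The cholesterol synthesis list, which fat cells also express in part, did not share it, with a median D7 a over D7 b ratio of 1.21 and summed CPM of 11682 and 9478 in control and 1840 and 1515 at D7. The part of fat in the other calls was not tested gene by gene. With the 108 genes of the fat, blood and muscle lists removed before the fit, 2870 genes were called.

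Erythroid genes differed less. Their median D7 a over D7 b ratio was 0.500 over 19 tested genes, and 9 of them were at least 2-fold higher in D7 b and 3 in D7 a. Hba2, an alpha globin, stood at 286 and 366 CPM in control and 18.5 and 109 at D7 (log2 fold change -2.35 ± 0.73, adjusted p = 0.0481). Summed over the list the CPM were 1078 and 1192 in control and 261.4 and 644.8 at D7, so that both D7 rats were lower than both controls and D7 a the lowest. Bpgm, a mutase of red cell metabolism, was the 1 upregulated gene of the list (log2 fold change 1.42 ± 0.12, adjusted p = 0.000676). The 4 downregulated erythroid genes were 0 without control a, 1 without control b, 2 without D4 a or D4 b and 7 without D7 b, and Hba2 was among those lost without control a, control b, D4 a or D4 b. Of 24 tested skeletal muscle genes 4 were downregulated, and 2 without control b or D7 b, beside 9.02% of all genes. Lists other than fat and blood also leaned toward D7 b. Their median D7 a over D7 b ratios were 0.569 for mast cells, 0.634 for skeletal muscle and 0.672 for pericytes and smooth muscle. Fewer genes were higher in D7 a. The 12 largest D7 a over D7 b ratios were those of Pls3, Igf2, Ahnak2, Tpd52, Psmg3, Drp2, Rpl30, SNORD113, Myoc, Mt3, Ncmap and Wnt6, and they began at 6.08 for Pls3 and 3.94 for Igf2, which held 266 and 67.5 CPM. Drp2 and Ncmap are myelin genes, and both D7 values of each were nonetheless below both controls.

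**Figure D4:**
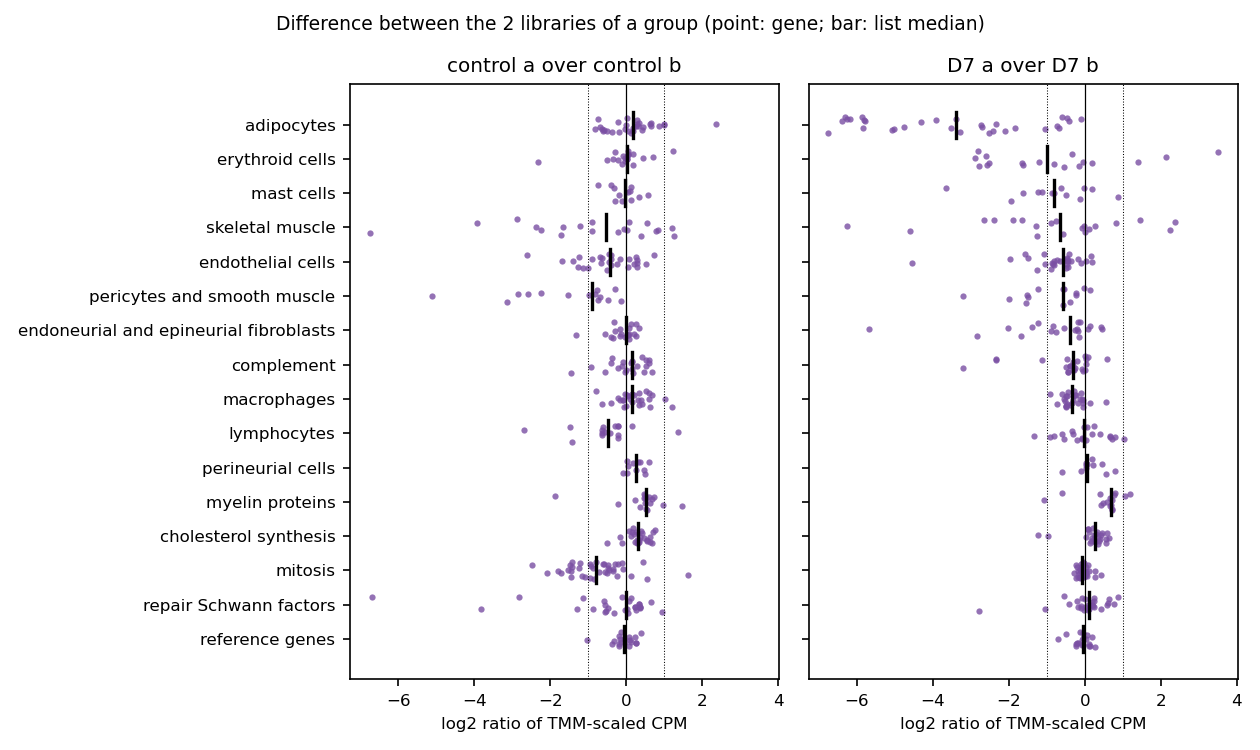
Log2 ratio of CPM between the 2 control rats (left) and the 2 D7 rats (right) for the genes of 16 lists, 1 point per gene and a bar at the list median, with dotted lines at 2-fold. The adipocyte list lies far to the left only between the D7 rats, at a median ratio of 0.0950 against 1.13 between the controls, and the pericyte and mitosis lists are shifted between the controls (0.540 and 0.579).

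In the lncRNA table, whose summed counts were 3043817 and 2732548 in control and 2827139 and 2694777 at D7, 815 of 14077 tested transcripts (5.79%) were differentially expressed at D7, with 422 upregulated (3%) and 393 downregulated (2.79%). The 2 rats of a group correlated at 0.8859 in control and 0.8773 at D7, below the values of the mRNA table. Without TMM factors the median log2 change moved from 0.04 to 0.20 and the share of upregulated calls from 51.78% to 63.76%. The count fell strongly with any 1 library left out, to 354 without control a, 407 without control b, 346 without D4 a, 328 without D4 b, 199 without D7 a and 214 without D7 b. The calls differed by where a lncRNA lies. Of 8180 tested lncRNAs wholly inside a gene 4.438% were called, of 2658 partly overlapping one 5.418%, and of 3239 outside genes 9.509%. By source, 5.009% of NONCODE transcripts, 6.811% of Ensembl transcripts and 12.37% of newly predicted transcripts were called. The shares are descriptions, since transcripts of a gene share fragments and the classes differ in level.

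The largest rises among called lncRNAs of at least 2 FPKM in one group were transcripts seen little or not at all in control. MSTRG.4110.2, a newly predicted transcript inside Atp10b (chr10:28602695-28604335 on Rnor_6.0), had 0 counts in the control and D4 libraries and 269 and 171 at D7, at least 68.3-fold higher than control. NONRATT029243.2 (chr9:18637916-18638522), inside Runx2, had 0 counts in control and 131 and 117 at D7, at least 38.6-fold higher. NONRATT030737.2, inside Dip2b, had 3 and 3 counts in control, 3 and 3 at D4 and 1761 and 1437 at D7, a ratio of 499 (95% counting interval 229 to 1359.9). MSTRG.4110.2 and NONRATT030737.2 were thus at the control level at D4 and present in both D7 rats. NONRATT021747.2, ENSRNOT00000090488 and MSTRG.18586.1 complete the 6 and were at least 38.9-fold, 26.6-fold and 24.3-fold higher. The largest falls began with NONRATT014419.2 (chr19:58861957-58862924), inside the potassium channel gene Kcnk1, with 1603 and 1070 counts in control and 1 and 1 at D7, a control over D7 ratio of 1428 (95% counting interval 395 to 11802). NONRATT006444.2, inside Son, had 999 and 863 counts in control, 2 and 2 at D4 and 2 and 2 at D7, a ratio of 498 (95% counting interval 194 to 1828). NONRATT019532.2, overlapping Qser1, had 706 and 465 and 1 and 1 counts, a ratio of 626 (95% counting interval 173 to 5174). MSTRG.11870.1, NONRATT016552.2 overlapping Hapln2 and NONRATT025148.2 had 0 counts in both D7 rats and were at least 26.8-fold, 23.5-fold and 15.1-fold lower. Without D7 a or D7 b the calls of MSTRG.4110.2, NONRATT021747.2, ENSRNOT00000090488, NONRATT016552.2 and NONRATT025148.2 were lost, and those of the last 2 also without either control. The lncRNA with the highest CPM in the tested table, NONRATT003468.2 (chr1:221156368-221158798), outside annotated genes, went from 80639 and 83470 to 39863 and 40589 CPM of the lncRNA counts (log2 fold change -1.03 ± 0.05, adjusted p = 0.00197).

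Inside the genes of the 42 lists lay 67 called lncRNAs, in 49 genes, 39 upregulated and 28 downregulated. For 54 of them the gene was called as well, and in all 54 in the same direction. The tested lncRNAs inside list genes were not counted, so the 67 have no share of their own. Over all tested lncRNAs inside a gene 4.438% were called. Of these called lncRNAs, 257 lay in a called gene and 106 in genes not called or not tested. Among all 8180 tested lncRNAs inside a gene, called or not, 1145 lay in a called gene. The lists were chosen with earlier results of these data known. Since the use of strand in counting was not stated, fragments of a gene and of a transcript within it cannot be told apart, and these pairs are not separate measurements. MSTRG.28206.23, inside Runx2, had 47 and 20 counts in control and 8974 and 8879 at D7 (log2 fold change 7.98 ± 0.49, adjusted p = 0.00303), and MSTRG.25154.3, inside Hmga2, had 7 and 4 and 1185 and 2111 counts (log2 fold change 8.11 ± 0.46, adjusted p = 0.0023). NONRATT003292.2, inside Mki67, rose from 4 and 11 to 548 and 601 counts (log2 fold change 6.12 ± 0.54, adjusted p = 0.00691), and NONRATT030654.2, inside Drp2, fell from 22256 and 16239 to 1690 and 755 counts (log2 fold change -4.07 ± 0.41, adjusted p = 0.00943). Each of these followed its gene in both rats. The other 13 lay in genes that were not called. MSTRG.7123.1, inside the collagen gene Col26a1, fell from 305 and 230 to 22 and 5 counts (log2 fold change -4.39 ± 0.65, adjusted p = 0.0225), while Col26a1 had a log2 change of 0.39. NONRATT015286.2, inside Postn, which encodes periostin, rose from 112 and 75 to 583 and 388 counts (log2 fold change 2.28 ± 0.28, adjusted p = 0.0147), with Postn at 0.50. These calls were lost without control a, control b, D4 a or D4 b for MSTRG.7123.1 and without control b, D4 b or D7 a for NONRATT015286.2.

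**Figure D5:**
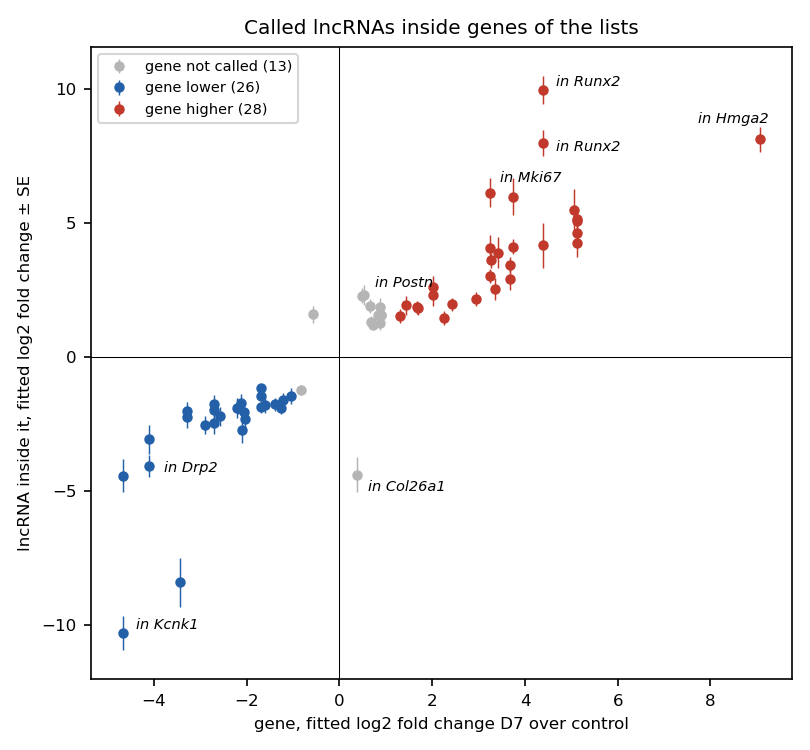
Fitted log2 fold change (D7 over control) ± SE of the 67 called lncRNAs inside list genes (vertical axis) against that of the gene they lie in (horizontal axis), coloured by the call of the gene. The 54 transcripts in called genes lie at the lower left and upper right, and the 13 in genes not called stand near 0 on the horizontal axis, among them those in Col26a1 and Postn.

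The text of the study names 18 pairs of a gene and a lncRNA from its networks, chosen there on these libraries, and 17 of the lncRNAs could be tested. The study also measured Gdnf, Nfasc, Pmp22 and their paired lncRNAs by quantitative PCR in its remaining rats. It reported the same directions as in sequencing at D4 and D7, significant for all but NONRATT008698.2. For Gdnf and NONRATT015075.2, inside it (chr2:56892629-56893363), both were upregulated, the lncRNA with 0 and 3 counts in control, 338 and 524 at D4 and 66 and 87 at D7, a ratio of 47.7 (95% counting interval 16 to 234). All 3 lncRNAs paired with Sema3e were upregulated with it, by log2 5.05 for NONRATT021162.2, 4.25 for NONRATT021161.2 and 5.13 for MSTRG.19354.1. Both paired with Pmp22 were downregulated with it, NONRATT004386.2 from 339 and 199 to 73 and 68 counts (log2 fold change -2.01 ± 0.34, adjusted p = 0.033) and NONRATT004387.2 with a log2 change of -2.24. MSTRG.15816.1 with Kcnd3 and MSTRG.15190.1 with Kcnab1 were downregulated as their genes were. Without D7 a these last 4 lncRNA calls, that of NONRATT015075.2 and that of NONRATT021161.2 were lost, and the latter 2 also without D4 a, D4 b or D7 b. The tested lncRNAs paired with Nfasc, Smad3, Igsf10, Col4a5, Rapgef3, Ppp2r2b and Ppp2r2c were not called. The study drew the pairs of Smad3, Igsf10, Col4a5, Ppp2r2b and Ppp2r2c from its D4 libraries against control and not from D7. The nearest to the threshold was NONRATT026281.2 in Rapgef3, with 25 and 16 counts in control and 2 and 2 at D7 (log2 fold change -3.37 ± 0.68, adjusted p = 0.0501), and Smad3 itself had a log2 change of 0.82, under 2-fold.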

How the data were processed

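Total RNA of sciatic nerve from 2 rats per group was sequenced as paired ends after removal of ribosomal RNA. Per the study's methods and the labels, the authors mapped reads with HISAT2 2.0.4 to Rnor_6.0, assembled and counted fragments with StringTie 1.3.0, matched lncRNA transcripts to NONCODE and Ensembl and predicted further ones. Strand use was not stated. The deposited counts are whole numbers per gene (30957 features) or per lncRNA transcript (22721 features) and were not normalized. The deposited FPKM values, computed by the authors from these counts, served only to choose the features named, since mRNA and lncRNA values have different denominators. No column of per-sample values was left unused.

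The counts were tested with edgeR 4.0.16 in R 4.3.3: filterByExpr, TMM factors, and the quasi-likelihood fit and F test of all 6 libraries, mRNA and lncRNA separately, with Benjamini-Hochberg adjustment over the 15195 genes or 14077 lncRNAs tested. The biological coefficient of variation was 0.181 for mRNA and 0.3995 for lncRNA. Calls needed an adjusted p under 0.05 and a 2-fold change. Standard errors are the absolute log2 fold change over the square root of F. Groups with all libraries at 0 were set at a floor of 3 counts per library. Groups not all at 0, with at most 3 counts in each library, got a count ratio with an exact 95% interval. Both cover counting error only. Same-letter libraries of control and D7 deviated together at a correlation of 0.1949 for mRNA and 0.0657 for lncRNA, and the letters were not taken as pairs. The script was tested on simulated counts.

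The members, the 42 gene lists (1133 entries, 921 distinct genes tested, of which 247 were upregulated and 174 downregulated) and the tests were chosen with earlier results of these data known. Genes were named where they belong to a list, are among the 12 largest rises or falls of called genes without overlap at a mean of at least 5 FPKM in 1 group, the 12 largest or smallest D7 a over D7 b ratios at a mean of at least 10 FPKM, or the 12 largest differences each way from D4, and lncRNAs where they are among the 6 largest rises or falls at 2 FPKM, in the study's pairs or inside a named gene. From a list the largest changes, genes not called and genes of high FPKM were taken. Promoter windows came from RefSeq on GRCr8 and were matched by symbol. Some genes counted in the lists are not reported here by name. Columns of the authors' own comparisons were not used. Alternatives were DESeq2 1.42.0, no TMM factors, no count filter or 1 CPM, other sets of libraries, a joint table, removal of fat, blood and muscle genes, other thresholds and leaving out each library. Figures used matplotlib 3.10.9 in Python 3.11.15.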

Additional observations from a re-analysis of the deposited data

Results flagged for a closer look

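The response at D7 differed from that at D4 in 331 of 15195 tested genes (2.18%) by a direct contrast of the days in the same fit, with 256 higher (1.68%) and 75 lower (0.494%) at D7. The tally changed with the libraries that were fitted, and the reason was not tested. It was 0 without D4 a, where 2054 genes had an unadjusted p under 0.05 and the lowest adjusted p was 0.138, and 0 without D4 b, where 2296 genes had one and the lowest adjusted p was 0.0922. DESeq2 called 521 genes with all 6 libraries, and 3754 genes had an unadjusted p under 0.05 in edgeR. Of the genes called against control, 181 were also called between the days: 54 higher than both groups, 35 higher than control and lower than D4, 79 lower than control and higher than D4, and 13 lower than both. Among lncRNAs 35 of 14077 (0.249%) differed between the days.

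D4 was lower and D7 higher than control in 3 genes, Nefl and Fam84a among them. Nefl had a D7 over D4 log2 change of 6.63 ± 0.48 (adjusted p = 0.0117), after 20 and 67 counts at D4 and 2791 and 4075 at D7. Fam84a went from 20 and 30 counts in control to 7 and 11 at D4 and 196 and 124 at D7, a D7 over D4 change of 4.44 ± 0.44 (adjusted p = 0.0122). No gene showed the opposite order by these calls. The control libraries entered both comparisons with control.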

How the results depend on the processing

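Against control, 2863 mRNAs were called and between 2284 and 2859 with 1 library left out. With the 2-fold change itself tested 1217 were called, and without a fold threshold 5705. No called mRNA or lncRNA took the opposite sign under any alternative, and from 73.4% (without D7 a) to 99.3% of the mRNA calls were made again, except without a fold threshold, where all were, at an adjusted p under 0.01 (67.7%) and with the 2-fold change tested (42.5%). The 815 lncRNA calls depended on the processing. There were 532 with the control and D7 libraries alone, 1455 with DESeq2, 425 with no count filter, 1459 in a joint table with the mRNAs, 252 with the 2-fold change tested, 139 at an adjusted p under 0.01, and from 199 (without D7 a) to 407 (without control b) with 1 library left out, 354 without control a, 346 without D4 a, 328 without D4 b and 214 without D7 b. With the replicate block, the letter as a term, 2827 mRNAs and 459 lncRNAs were called, and 248 mRNAs between D7 and D4, but the letters share only a name and there are 2 of them. Between D7 and D4 the count of 331 became 521 with DESeq2, 197 in the joint table, 37 with the 2-fold change tested, 8 at an adjusted p under 0.01, 710 without a fold threshold, and 0 (without D4 a or D4 b) to 469 (without D7 b) with 1 library left out, with 99 without D7 a.

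The upregulated share of called mRNAs, 52.15%, was 50.15% with DESeq2, 70.43% without TMM factors, 58.36% in the joint table, 63.27% with the 2-fold change tested, 59.03% at an adjusted p under 0.01, and 48.2% (without D7 b) to 57.88% (without D7 a). The share for lncRNAs, 51.78%, was 46.8% with DESeq2, 63.76% without TMM factors, 59.92% with the 2-fold change tested, 64.03% at an adjusted p under 0.01, and 51.84% to 57.91% (without control a) with 1 library left out. The D7 a over D7 b ratio was 0.0672 on summed CPM in place of the median 0.09495 for adipocyte genes, and 0.4055 in place of 0.5004 for erythroid genes. The cause of these changes was not tested.

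Of 271 genes and lncRNAs named, 19 took the other sign under some alternative, each of them not called in the main test. Without TMM factors these were Arg1 (0.14), Dhh (0.20), Qser1 (0.041), Son (0.19), Srebf1 (0.21) and Tfeb (0.19), and with DESeq2 Mmp14 (-0.0036). Over the fits that leave out 1 library, the log2 changes ran for Arg1 from -0.50 to 0.28, C4b from -2.98 to 0.25, Cldn11 from -0.088 to 0.31, Col26a1 from -0.28 to 1.70, Dhh from -0.37 to 0.16, Fads2 from -0.10 to 0.20, Ggps1 from -0.21 to 0.80, Igf2 from -1.06 to 0.89, Mertk from -0.13 to 0.53, Mmp14 from -0.17 to 0.21, Nrg1 from -0.19 to 0.54, Pls3 from -2.54 to 0.42, Rpl30 from -0.19 to 1.50, Srebf1 from -0.31 to 0.14, Tpd52 from -0.35 to 1.24 and Wnt6 from -0.27 to 0.73. The counts of 59 of 84 list directions moved by more than 1.5 times under at least 1 alternative, most often where the threshold was stricter or absent. Without TMM factors the downregulated count went from 3 to 1 for immediate early genes, from 5 to 1 for mast cells and from 5 to 3 for neurofilaments and cytoskeleton. Upregulated counts rose there in other lists, from 7 to 11 for engulfment and lipid handling. The removal of fat genes could not be made for lncRNAs, and D7 against D4 could not be fitted from control and D7 alone. B cell markers and many neutrophil and neuron markers had too few counts to be tested at this depth, and whether they were absent or rare was not tested.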
